A study of Mus musculus with 6 samples.

Results

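The Z-disc is the plate at each end of a sarcomere where thin filaments of opposite polarity are cross-linked by alpha-actinin and where the ends of titin are held. Proteins that bind alpha-actinin or titin there pass tension between sarcomeres and carry signals of stretch, and the disc is assembled while myoblasts differentiate into myotubes. The 10 genes described here encode such proteins: Actn2, Actn3, Ldb3, Myoz1, Myoz2, Myot, Tcap, Csrp3, Synpo2l and Xirp1. They were chosen by name, each matched 1 row among the 55804 of the gene count table, and all 10 passed the low-count filter. RNA came from the mouse myoblast line C2C12 after 3 days in differentiation medium. One group had been made with CRISPR/Cas9 and a guide RNA against Prr33 (Prr33-gRNA, genotype given as PRR33 knocked down) and the other with a control guide (Ctrl-gRNA, genotype given as WT), with 3 libraries each. The sources name neither separate cultures nor more than a single line for each guide, so p-values measure the spread between libraries, which may be technical, and an effect of the guide and a difference between the cell lines derived with each guide cannot be told apart.

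Total counts ran from 17412383 to 19471762 in Prr33-gRNA and from 17006381 to 19118010 in Ctrl-gRNA libraries, and no library stood apart, with correlations of log2 CPM of 0.9913 to 0.9933 within groups and 0.9457 to 0.9494 between them. Prr33 itself, in CPM (read counts scaled by library size and TMM factor), had 43.1, 45.8 and 42.4 in Prr33-gRNA libraries and 61.4, 60.0 and 54.3 in Ctrl-gRNA libraries. The targeted gene's RNA was thus lower in Prr33-gRNA without overlap but still present (log2 fold change -0.42, SE 0.07; edgeR adjusted p = 1.37e-06). Markers of skeletal muscle were detected in all libraries, with 8 of 8 genes tested, 6 lower and 2 higher (edgeR adjusted p below 0.05). The shares over all genes tested were 26.6% lower and 25.5% higher. Summed levels of these markers were 14265.7 to 15031.7 CPM in Prr33-gRNA against 25163.2 to 25752.2 CPM in Ctrl-gRNA. The falls were those of Myod1 (-1.59) and Myog (-1.63), which encode myogenic factors, of Mymk (-0.24), needed for fusion, and of Myh3 (-1.26), Acta1 (-0.43) and Des (-1.11), which encode structural proteins, all as log2 fold changes. The rises were those of the early myoblast factor gene Myf5 (1.003) and of Ckm (0.24), the creatine kinase gene of differentiated muscle. In such bulk samples fewer cells of a type and less RNA per cell cannot be told apart, and the part of either in the results below was not tested.

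Of the 10 Z-disc genes, 8 fell in Prr33-gRNA, 1 rose and 1 did not pass the test (edgeR's quasi-likelihood test, Benjamini-Hochberg adjusted p below 0.05 over all 14651 genes tested). Among all genes tested 26.6% were lower and 25.5% higher, 52.1% in either direction, so falls were more frequent among the members than in the background. The members were chosen with earlier results of these data known, so that excess is a description and not an independent test. Scaling by library size alone turned the background of 3740 higher and 3899 lower genes into 5002 higher and 3096 lower, and the count for the members stayed at 8 lower and 1 higher. The median log2 fold change was -1.17 over the members and 0.00 over all genes tested. A fall of at least 1 on the log2 scale was met by 6 of the 10, where 7.96% of all genes met it. Of these 6, Ldb3, Myoz1 and Synpo2l lie on chromosome 14, and Myoz2, Tcap and Csrp3 lie elsewhere. Protein-coding genes of chromosome 14 had a median of -0.90 and a first quartile of -1.15, so falls of that size were common there. The groups did not overlap for any member, 9 being lower and 1 higher, against 29.3% lower and 28.6% higher among all genes. Added together, the members took 0.146%, 0.147% and 0.138% of the counts of the Prr33-gRNA libraries and 0.259%, 0.258% and 0.244% of those of the Ctrl-gRNA libraries.

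**Figure D1:**
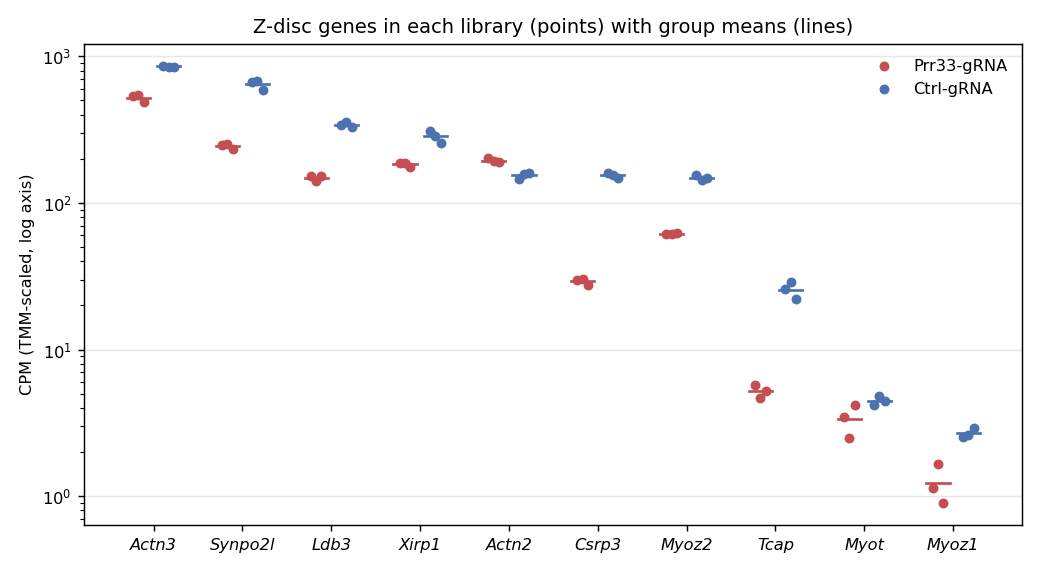
Level of each Z-disc gene in every library (points, CPM on a log axis) with the group mean (line), Prr33-gRNA in red and Ctrl-gRNA in blue, genes ordered by their Ctrl-gRNA mean. The blue points lie above the red ones for every gene but Actn2, and for Myot the closest points nearly touch at 4.20 and 4.21 CPM.

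The muscle alpha-actinins, the cross-linkers of the disc, moved apart. Actn3 (ENSMUSG00000006457, chr19:4861216-4877909, minus strand, mm10 as in all positions here) encodes the isoform of fast fibres and had the highest FPKM of the members in both groups. Its levels were 533, 541 and 491 CPM in Prr33-gRNA libraries and 861, 845 and 851 CPM in Ctrl-gRNA libraries. The 3 Prr33-gRNA values lay well below the Ctrl-gRNA values, 1.63-fold apart (log2 fold change -0.71, SE 0.04; edgeR adjusted p = 3.10e-16). Actn2 (ENSMUSG00000052374, chr13:12269426-12340760, minus strand), the isoform found in all skeletal fibres and in the heart, was the only member to rise. It stood at 201, 193 and 190 CPM in Prr33-gRNA libraries and at 146, 158 and 160 CPM in Ctrl-gRNA libraries, again without overlap, with a log2 fold change of 0.33 (SE 0.05; edgeR adjusted p = 4.25e-07). The Actn2 change was small beside the falls, and 82.2% of tested genes had a lower log2 fold change.

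The RefSeq promoter window of Actn2 (GRCm38.p6, chr13:12340683-12340982, minus strand, 250 bases before to 50 after the annotated start) is printed because it belongs to the member that rose. Capitals mark E-boxes, the letters CANNTG searched on both strands, which are sites that helix-loop-helix factors such as those of the MyoD family can bind.
Actn2 promoter: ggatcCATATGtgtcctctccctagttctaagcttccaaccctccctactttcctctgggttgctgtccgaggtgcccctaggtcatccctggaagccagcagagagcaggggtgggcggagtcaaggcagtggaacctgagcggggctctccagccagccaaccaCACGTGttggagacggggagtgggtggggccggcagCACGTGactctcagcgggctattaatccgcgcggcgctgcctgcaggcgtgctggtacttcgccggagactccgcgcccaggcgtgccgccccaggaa
Of its 3 E-boxes, 2 read CACGTG, a form present in 7.15% of the 32851 RefSeq promoter windows, and 0.594% of windows hold 2 or more. Neither CAGCTG nor CACCTG, other forms of the E-box, is among the 3, and which factors bind here was not tested.

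Because both isoforms are counted in the same library, their ratio needs no scaling between libraries. Per length, as the ratio of deposited FPKM values, Actn2 to Actn3 was 0.288, 0.272 and 0.296 in Prr33-gRNA libraries and 0.130, 0.143 and 0.144 in Ctrl-gRNA libraries. Each Prr33-gRNA library exceeded each Ctrl-gRNA library, and the log2 ratio differed by 1.04 (SE 0.06, n = 3 per group; exact two-sided permutation p = 0.1, the smallest that 3 against 3 can give). Actn2 thus made up 22.2% ± 0.721 of the summed FPKM of both genes in Prr33-gRNA and 12.2% ± 0.608 in Ctrl-gRNA (SD, n = 3 each). That sum itself was 231 ± 11.0 FPKM in Prr33-gRNA and 332 ± 1.53 FPKM in Ctrl-gRNA, so the higher Actn2 level did not make up for the lower Actn3 level. The paralogues share few stretches of 50 bases: 2 of 3802 words of that length in the Actn2 transcripts of GENCODE M21 also occur in Actn3, and the other 8 members share none with another gene.

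**Figure D2:**
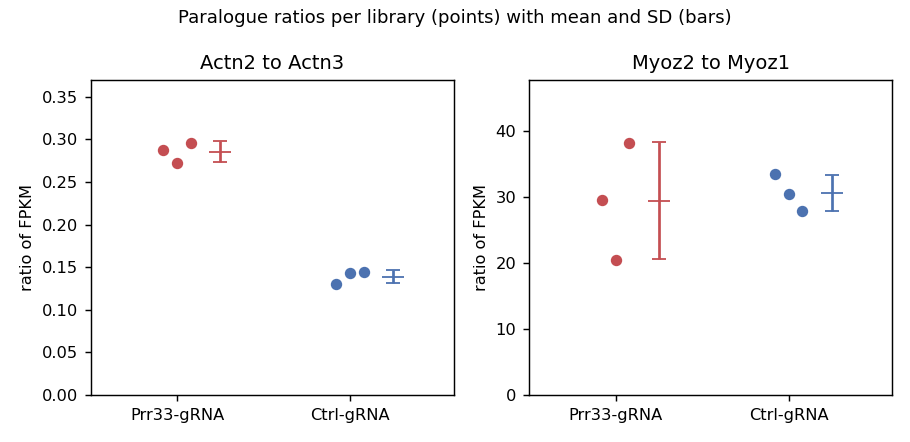
Ratio of FPKM values of paralogous Z-disc genes in each library (points), with the group mean and SD beside them, Actn2 to Actn3 on the left and Myoz2 to Myoz1 on the right. The Actn2 to Actn3 ratios lie between 0.272 and 0.296 in Prr33-gRNA and between 0.130 and 0.144 in Ctrl-gRNA, whereas the Myoz2 to Myoz1 ratios of the groups overlap.

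The 4 members grouped here as alpha-actinin partners were lower or did not pass, and members of other groups bind alpha-actinin too. Ldb3 (ENSMUSG00000021798), a PDZ and LIM domain protein also called ZASP or Cypher, had 152, 141 and 152 CPM in Prr33-gRNA libraries and 340, 354 and 331 CPM in Ctrl-gRNA libraries. The groups were far apart, 2.31-fold lower in Prr33-gRNA. By the fit this was -1.21 on the log2 scale (SE 0.05; edgeR adjusted p = 9.27e-22). Ldb3 has long and short splice forms, and counts per gene do not separate them.

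Myozenins, also called calsarcins, tie alpha-actinin to the phosphatase calcineurin, Myoz1 mainly in fast fibres and Myoz2 in slow fibres and the heart. Myoz2 (ENSMUSG00000028116, chr3:123006206-123035015, minus strand) had 61.0, 61.5 and 62.1 CPM in Prr33-gRNA libraries and 154, 143 and 147 CPM in Ctrl-gRNA libraries. These are tight groups far apart, 2.40-fold lower in Prr33-gRNA (log2 fold change -1.27, SE 0.05; edgeR adjusted p = 7.49e-21). Myoz1 (ENSMUSG00000068697) was scarce, with 21, 30 and 18 counts in Prr33-gRNA libraries and 47, 43 and 49 counts in Ctrl-gRNA libraries. It still passed, at a log2 fold change of -1.13 (SE 0.29; edgeR adjusted p = 0.00150), which was -0.55 on the log2(FPKM + 1) scale that compresses low genes. The Myoz2 to Myoz1 ratio of FPKM was 29.6, 20.5 and 38.2 in Prr33-gRNA and 33.4, 30.4 and 27.9 in Ctrl-gRNA libraries. These ranges overlap, and the log2 ratio differed by -0.10 (SE 0.27; exact two-sided permutation p = 0.8). Leaving out single libraries moved the difference between -0.31 and 0.14.

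Myoz2's promoter window (GRCm38.p6, chr3:123034938-123035237, minus strand) is printed as that of a clear fall outside chromosome 14. Capitals mark, in order, a match to the MEF2 motif and 2 E-boxes.
Myoz2 promoter: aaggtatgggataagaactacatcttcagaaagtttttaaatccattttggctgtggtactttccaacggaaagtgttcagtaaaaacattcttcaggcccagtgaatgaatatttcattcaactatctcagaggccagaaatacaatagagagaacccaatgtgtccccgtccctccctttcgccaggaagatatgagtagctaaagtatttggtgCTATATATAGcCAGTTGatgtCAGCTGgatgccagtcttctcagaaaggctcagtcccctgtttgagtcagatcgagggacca
The MEF2 match begins 33 bases before the annotated start and the E-boxes 22 and 12 bases before it, the nearer one reading CAGCTG. MEF2 matches occur in 3.19% of RefSeq promoter windows and CAGCTG in 16.3%. The letters of the MEF2 match alone do not tell a MEF2 site from another element rich in A and T. Which factors bind here was not tested.

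Myot (ENSMUSG00000024471, chr18:44334074-44355724, plus strand), for myotilin, which binds alpha-actinin and filamin and is mutated in a human myofibrillar myopathy, did not pass. Its counts were 64, 45 and 84 in Prr33-gRNA libraries and 78, 79 and 75 in Ctrl-gRNA libraries. In CPM the groups only just failed to overlap, with an estimate of -0.40 on the log2 scale (SE 0.21; edgeR adjusted p = 0.113). It reached -0.58 without Prr33-gRNA replicate 3 (edgeR adjusted p = 0.0392) and -0.22 without Prr33-gRNA replicate 2 (edgeR adjusted p = 0.419), so single libraries decide its value.

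Tcap and Csrp3, which sit at the titin end of the disc, fell furthest. Csrp3 (ENSMUSG00000030470, chr7:48830398-48848033, minus strand) encodes muscle LIM protein, a partner of Tcap and alpha-actinin linked to the sensing of stretch. Its levels were 30.0, 30.3 and 27.7 CPM in Prr33-gRNA libraries and 161, 154 and 149 CPM in Ctrl-gRNA libraries. This was 5.27-fold lower in Prr33-gRNA (log2 fold change -2.40, SE 0.06; edgeR adjusted p = 2.16e-27), and 2.46% of tested genes had a lower value. Tcap (ENSMUSG00000007877, chr11:98383811-98384953, plus strand), or telethonin, joins the ends of a pair of titin molecules. It had 5.76, 4.70 and 5.20 CPM in Prr33-gRNA libraries and 25.9, 28.7 and 22.1 CPM in Ctrl-gRNA libraries. Tcap was 4.89-fold lower, on counts of 85 to 106 in Prr33-gRNA and 372 to 480 in Ctrl-gRNA libraries (log2 fold change -2.29, SE 0.12; edgeR adjusted p = 1.87e-17).

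The first RefSeq promoter window of Csrp3 (GRCm38.p6, chr7:48848002-48848301, minus strand) is printed for the deepest fall, with E-boxes in capitals.
Csrp3 promoter: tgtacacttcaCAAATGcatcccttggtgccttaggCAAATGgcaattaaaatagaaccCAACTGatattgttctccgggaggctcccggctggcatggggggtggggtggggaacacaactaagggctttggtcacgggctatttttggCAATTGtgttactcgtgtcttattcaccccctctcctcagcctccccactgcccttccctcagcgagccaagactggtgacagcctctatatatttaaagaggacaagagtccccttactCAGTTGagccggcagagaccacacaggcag
It holds 5 E-boxes, where 6.49% of windows hold 4 or more, but neither CAGCTG nor CACCTG among them. A second Csrp3 start has 4, of which 2 read CACCTG on one strand or the other, a form in 20.2% of windows. RefSeq windows were matched for 5 of the 10 members. Besides the 3 printed, Synpo2l has a MEF2 match at both of its starts, and Ldb3 has a CArG box, the motif of serum response factor, 35 bases before its first start, which 1.63% of windows hold, and no E-box. CATTCC, the MCAT element bound by TEAD factors, was in none of the members' windows and in 14.7% of all windows. These are matches of letters and do not show binding.

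Synpo2l and Xirp1, which bind and remodel actin at the disc, both fell. Synpo2l (ENSMUSG00000039376), a member of the synaptopodin family that binds alpha-actinin, came second by FPKM in both groups. It had 250, 254 and 232 CPM in Prr33-gRNA libraries and 667, 679 and 592 CPM in Ctrl-gRNA libraries. The groups were far apart, with a log2 fold change of -1.40 (SE 0.05; edgeR adjusted p = 1.50e-20). Xirp1 (ENSMUSG00000079243, chr9:120013755-120023598, minus strand), or Xin, has actin-binding repeats and marks forming and damaged myofibrils. It had 187, 188 and 177 CPM in Prr33-gRNA libraries and 309, 287 and 258 CPM in Ctrl-gRNA libraries, the mildest of the falls that passed (log2 fold change -0.63, SE 0.05; edgeR adjusted p = 2.68e-11). The spread of Xirp1 over the Ctrl-gRNA libraries, 25.3 CPM as SD, was smaller than the distance between the groups.

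Levels per length put the members in a different order in each group. In Prr33-gRNA Actn3 led with 179 ± 9.74 FPKM, followed by Synpo2l (52.9 ± 2.61 FPKM) and Actn2 (51.1 ± 1.58 FPKM), which overlapped each other. In Ctrl-gRNA Actn3 led with 292 ± 2.57 FPKM, followed by Synpo2l with 139 ± 9.78 FPKM and Csrp3 with 57.5 ± 2.12 FPKM. Csrp3 was thus the seventh by FPKM in Prr33-gRNA, at 11.0 ± 0.564 FPKM, and the third in Ctrl-gRNA, where its range overlapped that of Ldb3. Actn2 took the opposite course, the third in Prr33-gRNA and the seventh in Ctrl-gRNA, at 40.6 ± 2.05 FPKM, where the ranges of Xirp1, Myoz2 and Actn2 overlapped from each to the next. Tcap (5.49 ± 0.558 FPKM in Prr33-gRNA, 26.8 ± 3.39 FPKM in Ctrl-gRNA), Myot (1.53 ± 0.384 FPKM in Prr33-gRNA, 2.02 ± 0.131 FPKM in Ctrl-gRNA) and Myoz1 (0.650 ± 0.206 FPKM in Prr33-gRNA, 1.41 ± 0.109 FPKM in Ctrl-gRNA) came last in both groups, and neighbours among these 3 did not overlap. All other neighbours were separate (SD, n = 3 each). The length that the authors used for Xirp1, 6230 bases, exceeds its 5839 exonic bases in GENCODE M21, and for the other 9 the figures are equal.

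**Figure D3:**
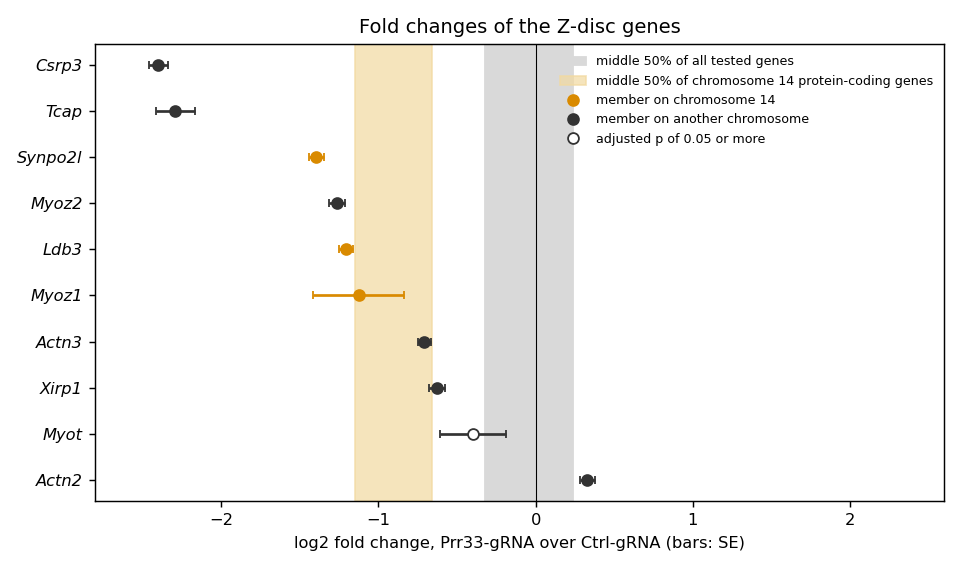
Log2 fold change of each Z-disc gene, Prr33-gRNA over Ctrl-gRNA, with its SE (bars), members on chromosome 14 in orange and the open point not past the threshold. The grey band spans the quartiles of all tested genes (-0.32 to 0.24) and the yellow band those of chromosome 14 protein-coding genes (-1.15 to -0.66). Csrp3 (-2.40) and Tcap (-2.29) lie furthest to the left, beyond both bands.

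Position on the genome touches 3 members. Myoz1 (chromosome 14, 20649107 to 20656540) and Synpo2l (20658946 to 20668354) are neighbours on the minus strand, 2406 bases apart, and Ldb3 lies on the same chromosome at 34526603 to 34588682 (mm10). Protein-coding genes of chromosome 14 were lower as a group: 90.2% of 400 fell, the median being -0.90 (log2 fold change), against 26.2% of 11667 on other chromosomes, with a median of 0.02. The members there lay below that median by 0.50 for Synpo2l, 0.31 for Ldb3 and 0.23 for Myoz1, and 17.8%, 22.0% and 27.3% of the chromosome's genes had lower values than these 3. Neighbouring genes fell as well. Usp54, a deubiquitinase homologue beside Myoz1, and Sec24c, a vesicle coat gene beside Synpo2l, had log2 fold changes of -0.59 and -0.95. Bmpr1a, a BMP receptor gene, and Wapl, a cohesin release factor gene, flank Ldb3 and had -0.75 each. How far the chromosome's shift accounts for the members on it was not tested. Without chromosome 14, 5 of 7 members were lower, 1 higher and 1 did not pass, with a median of -0.71, and the falls of Csrp3, Tcap and Myoz2 are among the 5.

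Beyond the members, 47 other Z-disc genes were listed by role. Of the 45 tested, 32 fell, 10 rose and 3 did not pass, their median being -0.48 (log2 fold change), beside 26.6% lower, 25.5% higher and a median of 0.00 among all genes tested. The 10 rises are thus near the background share, and the same background stands beside the counts by role that follow. Among the tested genes of the list only Pdlim2 lies on chromosome 14. Igfn1 and Ky were too low to test. Of the non-muscle alpha-actinins Actn1 rose (0.35) and Actn4 fell (-0.31). Palladin (Palld, -0.80) and myopalladin (Mypn, -0.68), of the family of myotilin, fell, while the myozenin gene Myoz3 had at most 18 counts and did not pass. Of 6 PDZ-LIM genes, relatives of Ldb3, 5 fell and 1 rose, the lowest adjusted p-values being those of Pdlim2 (-1.62), Pdlim7 (-0.87) and Pdlim1 (-0.60).

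Among the LIM-domain relatives of Csrp3, 4 of 5 fell and 1 rose. Csrp2 (-1.38) and Csrp1 (-0.94), its paralogues in smooth muscle and other tissues, were lower, whereas Fhl1, a LIM-only protein of skeletal muscle, rose by 0.22. All 4 genes listed in the synaptopodin and Xin group fell, among them Xirp2 (-1.43), Nrap (-1.27) and Synpo2 (-0.94). Nrap encodes a nebulin-related scaffold of assembling myofibrils and was placed in this group though it belongs to neither family. Xirp2, the closest relative of Xirp1, averaged 112 ± 6.24 CPM in Prr33-gRNA and 301 ± 8.35 CPM in Ctrl-gRNA (SD, n = 3 each). Filament anchors and caps were mixed, with 5 lower and 3 higher of 9, the filamin gene Flnc (-0.48) falling and nebulette, Nebl, rising by 1.20 (27.9 ± 1.12 CPM in Prr33-gRNA, 12.2 ± 1.76 CPM in Ctrl-gRNA; SD, n = 3 each). Links to intermediate filaments (3 lower and 1 higher of 4) included desmin (Des, -1.11), plectin (Plec, -0.60) and syncoilin (Sync, -0.53). Titin-linked stress genes (5 lower of 6) included Ankrd1 (-0.91), Ankrd2 (-0.80) and Trim55 (-0.38). Among chaperones and stretch-linked genes 3 fell and 3 rose of 6 tested, and Hspb8 (-0.60), Hspb7 (-0.91) and Cryab (-0.45) were the falls. The numbers in this list are log2 fold changes past the threshold unless stated.

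**Figure D4:**
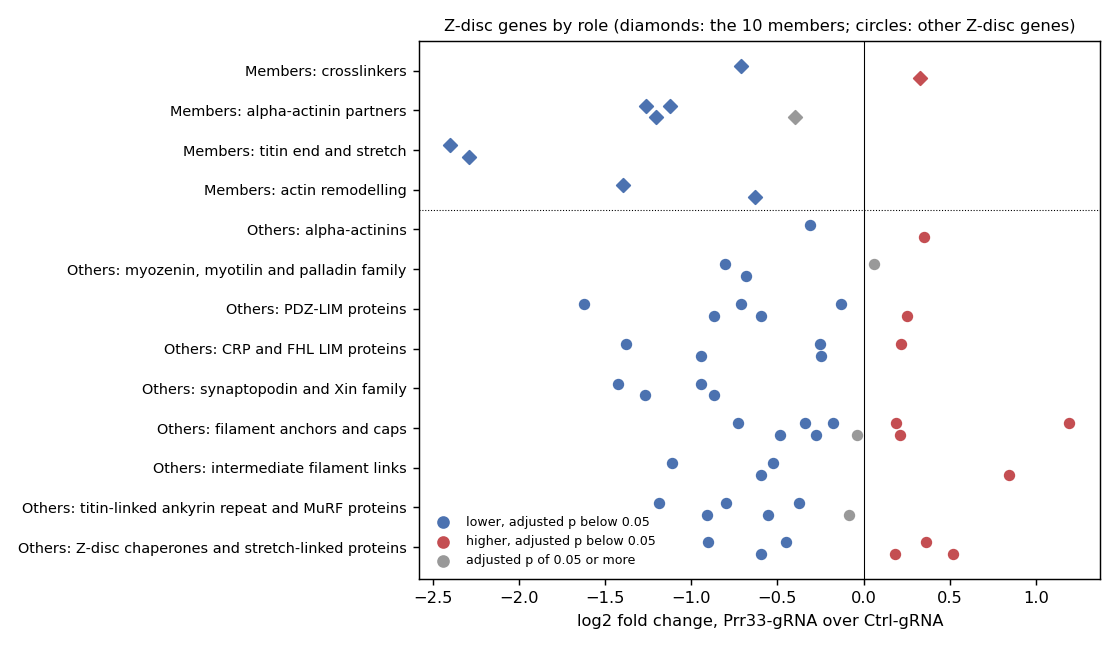
Log2 fold change, Prr33-gRNA over Ctrl-gRNA, of the 10 members (diamonds) and the 45 tested other Z-disc genes (circles) by role, coloured by call. Blue falls outnumber red rises in most rows, the members at the titin end lie furthest left at -2.40 and -2.29, and Nebl lies furthest right at 1.20.

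By distance over the 6 libraries, the genes closest to the median profile of the members were Abhd4, Itm2b, Vcl, Stk38l and Oxa1l (log2 fold changes of -1.06 for Abhd4 and -1.02 for Stk38l), with root-mean-square distances of 0.03 to 0.04 on the log2(CPM + 1) scale. The members' own distances to that profile ran from 0.105 for Ldb3 to 0.682 for Actn2, so these 5 genes follow the middle of a varied set. All but Stk38l lie on chromosome 14, and Vcl encodes vinculin, which anchors actin at the costamere.

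Markers of other cell types ranged widely. Their counts of lower and higher genes stand beside 26.6% lower and 25.5% higher among all genes tested, 52.1% in either direction. Fibroblast markers summed to 1269.5 to 1349.7 CPM in Prr33-gRNA and 2103.5 to 2239.8 CPM in Ctrl-gRNA, with 5 lower and 1 higher of 6 tested among 8 and Lum at 0. Of the collagen genes among them Col1a1 fell most (log2 fold change -4.26), whereas Col1a2 was the 1 that rose (2.63). Smooth muscle markers summed to 4794.3 to 4938.8 CPM in Prr33-gRNA and 5933.0 to 5942.4 CPM in Ctrl-gRNA, nearly all of it Acta2, with 2 of 4 tested lower and Myh11 and Cnn1 at no more than 7 counts. Cardiac markers summed to 2.32 to 2.75 CPM in Prr33-gRNA and 30.5 to 34.2 CPM in Ctrl-gRNA, most of it Myh6, which lies on chromosome 14 and resembles Myh7, with Myl7 and Tbx5 at 0. Endothelial, macrophage and adipocyte lists stayed below 2 CPM in every library, with Emcn, Ptprc, Adgre1, Adipoq, Plin1 and Cidec at 0. Neural and glial markers summed to 4.65 to 6.41 CPM in Prr33-gRNA and 9.40 to 13.2 CPM in Ctrl-gRNA, with Rbfox3 and Snap25 at 0. All RNA came from the myoblast line C2C12, so these sums are levels of marker genes and do not show that other cell types were present. Any part of other cell types in the Z-disc results was not tested.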

How the data were processed

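Gene counts of 6 C2C12 libraries are the authors' deposited whole-number values, without normalization. A second deposited table holds FPKM values, which equal counts over gene length and a constant per library (0.973 to 0.978 of the total in Ctrl-gRNA, 1.03 to 1.04 in Prr33-gRNA). Per the submitters' processing notes, CASAVA, HISAT2 2.0.5 and featureCounts 1.5.0-p3 were used with mm10. Their roles, the annotation release and the strand setting are not given in the sources used here. Per the labels' protocols, total RNA was taken with TRIzol and libraries came from a NEBNext Ultra kit. Groups and replicate numbers come from the sample titles. None of the members shares an exonic base with another gene in GENCODE M21, and coordinates of all 10 are equal there.

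Counts were tested with edgeR 4.0.16 in R 4.3.3 (filterByExpr, TMM, glmQLFit with robust fitting, 2 groups, no covariate), which kept 14651 genes, with Benjamini-Hochberg adjustment over all of them and a threshold of 0.05. SE is the log2 fold change over the square root of F. With 3 counts as the floor, a library can show 0.150 to 0.182 CPM, counting error only. No library was a copy of another of its group (chi-square 2.88 to 5.66 for each gene compared). FPKM served for levels per length and paralogue ratios. The rows without an Ensembl ID (333 of 55804) name loci and stayed in.

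The members and lists were chosen with earlier results of these data known. Named genes are the members, Prr33, up to 3 genes with the lowest adjusted p per role or list, the nearest tested protein-coding neighbours of chromosome 14 members, and the 5 genes of closest pattern; 1 gene that this rule names is not reported here. The cell type markers, Igfn1 and Ky are named outside that rule, after their values were seen. Promoters are RefSeq's (GRCm38.p6). The MEF2 and CArG motifs allow A or T in their middle. Alternatives were RLE factors, no scaling factors, DESeq2 1.42.0, limma-voom and limma on log2(FPKM + 1) or log2(FPKM + 0.1) with limma 3.58.1, other filters, a replicate block, stricter thresholds, and leaving out chromosome 14 or single libraries. Figures used matplotlib 3.10.9.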

Additional observations from a re-analysis of the deposited data

How the results depend on the processing

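Of 177 values for the 10 members under alternatives, 0 changed direction, 176 kept their side of the threshold, and 1, Myot without Prr33-gRNA replicate 3, came to pass it. Among the 177, 1 value per member is the main fit read at the stricter threshold of 0.01, so its direction could not change. The 8 falls and 1 rise among the members held in all alternatives but those named next. Leaving out chromosome 14 gave 5 falls, since 3 members lie on it. A log2 fold change of at least 1 left 6 falls and 0 rises among the members, 1 rise and 6 falls among the other Z-disc genes, and 427 higher and 1166 lower genes in all, since it drops smaller changes. Leaving out single libraries gave 8 to 9 falls among the members, 29 to 32 falls and 10 rises among the other Z-disc genes, and log2 fold changes of -0.47 to -0.38 for Prr33. The Actn2 to Actn3 difference ranged from 0.99 to 1.07 and that of Myoz2 to Myoz1 from -0.31 to 0.14, the positive value coming without Prr33-gRNA replicate 2, and the cause was not tested. Deviations of same-numbered libraries correlated at -0.012, -0.011 and 0.023, and these numbers were not taken as pairs. With a replicate block 8 members were lower and 1 higher, 32 other Z-disc genes were lower and 10 higher, 3811 genes were higher and 3975 lower among all genes, and Prr33 stood at -0.42. Depth limits Myoz1 and Myot, which had at most 49 and 84 counts in a library.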

Other observations

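Genes typical of slow and of fast fibres were mostly lower. Of 8 slow fibre genes 7 were tested and all 7 fell (median log2 fold change -1.26; 5 of 5 without chromosome 14, median -0.75). The slow myosin gene Myh7 fell to 13.3 ± 1.18 CPM in Prr33-gRNA, against 226 ± 10.6 CPM in Ctrl-gRNA, and the slow troponin gene Tnnc1 to 476 ± 20.1 CPM, against 1137 ± 15.1 CPM (SD, n = 3 each); both lie on chromosome 14. Casq2, the calcium buffer of slow and cardiac muscle, had a log2 fold change of -0.75. Of 11 fast fibre genes 9 were tested, 8 fell and 1 rose (median -0.70). Casq1, the fast calcium buffer, and the fast myosin gene Myh1 fell (-3.09 and -0.96), whereas Myh4, another fast myosin gene, averaged 178 ± 5.30 CPM in Prr33-gRNA and 34.2 ± 2.96 CPM in Ctrl-gRNA. Among all genes tested 26.6% were lower and 25.5% higher (edgeR adjusted p below 0.05).

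Calcineurin, the phosphatase that myozenins bind, did not move one way. Of 9 tested genes for calcineurin subunits, NFAT factors and regulators of calcineurin, 4 fell, 2 rose and 3 did not pass (median -0.12), beside 26.6% lower and 25.5% higher among all genes tested. The catalytic subunit gene Ppp3ca rose by 0.27 and the regulatory subunit gene Ppp3r1 by 0.35, while Ppp3cb, a catalytic subunit gene on chromosome 14, fell (-0.79).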
